A study of Mus musculus with 27 samples.

Results

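The 37 genes of the mouse mitochondrial genome were followed in 27 RNA-seq libraries of mouse intestine. They are all the entries placed on chromosome MT, out of 55401 genes in the table. Of the 37, 13 code for proteins, 2 for ribosomal RNAs (rRNAs) and 22 for transfer RNAs (tRNAs), with 28 on the plus strand and 9 on the minus strand. All 37 passed the filter on low values, as did 11118 genes in all.

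The animals were wild-type male C57BL/6 mice aged 6 to 8 weeks. There were 9 groups of 3 libraries. Gamma rays were given with CBLB502 at 15 Gy (24 h), or without it at 15 Gy (6 h, 24 h and 3 d), with CBLB502 at 6 Gy (24 h), or without it at 6 Gy (6 h and 24 h). A further group received CBLB502 alone (24 h), and the control mice are labelled as untreated, although the design text of the series names a PBS group. CBLB502 is a flagellin-derived agonist of Toll-like receptor 5 studied as a radioprotectant. It was injected into the peritoneum at 0.2 mg per kg, and an interval before irradiation (0.5 h) is stated for 15 Gy. The design text counts 7 groups of 10 mice, and the sources do not say if libraries came from separate mice. The p-values therefore measure the spread between libraries, which may be partly technical.

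Mitochondrial DNA codes for core subunits of complexes I, III, IV and V of oxidative phosphorylation. Both of its strands are copied by the polymerase Polrmt with Tfam and Tfb2m into long transcripts that span many genes. In most places tRNAs stand between the other genes, and cutting the tRNAs out releases the messenger RNAs (mRNAs) and rRNAs. The amount of each mature RNA then depends on how it is processed and how fast it decays, for example on the stabilizing complex of Lrpprc and Slirp. Enterocytes, the absorptive cells of the gut lining, are rich in mitochondria.

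On GRCm38, mt-Rnr1 (MT:70-1024) and mt-Nd1 (MT:2751-3707) lie early on the circle, followed by mt-Co1 (MT:5328-6872), mt-Co3 (MT:8607-9390), mt-Nd4 (MT:10167-11544) and mt-Cytb (MT:14145-15288), all on the plus strand, and mt-Nd6 (MT:13552-14070) on the minus strand. The gene order matters for reading the values, because several members share bases with a neighbour. The sequences below are from GENCODE vM21 on GRCm38, 5′ to 3′, and are shown because reads from shared bases cannot be assigned to 1 gene by sequence. All of mt-Atp8 (MT:7766-7969, plus strand) is given first, and its last 43 bases, in capitals, are also the start of mt-Atp6. The end of mt-Nd4l (MT:10114-10173, plus strand) follows, with the 7 bases it shares with mt-Nd4 in capitals. The last line is the end of mt-Nd5 (MT:13506-13565, plus strand), where capitals mark the 14 bases that lie opposite the end of mt-Nd6 on the minus strand.
mt-Atp8: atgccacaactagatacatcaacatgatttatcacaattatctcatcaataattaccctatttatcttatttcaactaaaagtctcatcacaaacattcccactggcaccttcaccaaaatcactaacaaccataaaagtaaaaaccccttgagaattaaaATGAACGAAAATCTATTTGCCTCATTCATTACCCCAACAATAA
mt-Nd4l end: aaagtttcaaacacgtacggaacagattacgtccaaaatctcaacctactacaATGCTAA
mt-Nd5 end: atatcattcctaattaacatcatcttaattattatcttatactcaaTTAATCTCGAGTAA

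The short gene mt-Tr (MT:9808-9875, plus strand), the tRNA for arginine, lies between mt-Nd3 and mt-Nd4l, neighbours that are set against each other below. It is shown with its anticodon in capitals, beside the light-strand tRNA gene mt-Te (MT:14071-14139, minus strand), which has the highest mean count of the tRNA genes.
mt-Tr: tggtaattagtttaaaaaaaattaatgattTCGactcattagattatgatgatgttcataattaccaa
mt-Te: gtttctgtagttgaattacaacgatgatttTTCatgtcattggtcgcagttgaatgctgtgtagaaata

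Of the 13 protein-coding genes, mt-Co3, mt-Nd4 and mt-Cytb have annotated lengths (784, 1378 and 1144 bases) that run 1 base past their last full codon. That base is a T in each of them, and the poly(A) tail is known to complete such stop codons.

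A stretch of nuclear chromosome 1 holds near-identical copies of several of these genes, so part of what is counted cannot be assigned by sequence. Of 20 nuclear entries that matched a member transcript, 10 held over 1000 counts in a library, 7 on chromosome 1 and 3 on chromosome 2. The 7 on chromosome 1 are Gm10925 (matching mt-Atp6), Gm28661 (mt-Co2), Gm28437 (mt-Co3), Gm29216 (mt-Co1), Gm28439 (mt-Nd4), Gm10222 (mt-Nd4l) and Gm28438 (mt-Nd3). Those on chromosome 2 are Gm13340 (mt-Co1), Gm13341 (mt-Co2) and Gm13339 (mt-Nd2), and their counts were at most 0.473, 1.91 and 0.897% of the member's count. On chromosome 1 the copy of a short gene held nearly as many counts as the gene itself. Gm28661 held a median of 96.9% of the count of mt-Co2, Gm28437 98.2% of mt-Co3, Gm10222 98.0% of mt-Nd4l and Gm28438 100% of mt-Nd3. In the first library of 6 Gy with CBLB502 all of these were lowest, at 70.6, 76.3, 78.2 and 80.2% in the same order. Gm29216 and Gm28439 match parts of longer genes. Gm29216 held 29.8, 30.8 and 35.2% of the count of mt-Co1 at 6 h after 15 Gy, against 23.7, 23.0 and 22.2% in controls. Gm28439 held 27.2 to 43.4% of the count of mt-Nd4 over all libraries. How reads that match both places were counted is not given in the sources used here, so the levels of these members, mt-Co1 and mt-Nd4 among them, are uncertain.

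The first 33 bases of mt-Nd3 (MT:9459-9491, plus strand) and of Gm28438 (chr1:24613087-24613119, minus strand) show how close the copies are. The capital marks the only difference in 345 compared bases, T3C, with the base of mt-Nd3 first, the position counted from 1 at its first base, and the base of Gm28438 last.
mt-Nd3 start: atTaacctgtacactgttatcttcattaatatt
Gm28438 start: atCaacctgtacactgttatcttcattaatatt

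The count of mt-Atp6, a subunit of ATP synthase, fell into separate classes of libraries. In 12 libraries it was 18.4 to 26.5% of the count of Gm10925, whose 678 bases match mt-Atp6 without a difference, and in the other 15 it was 82.7 to 98.5%. The low class held all 3 libraries of 15 Gy at 6 h, 2 of 15 Gy at 3 d, 1 of 6 Gy with CBLB502, 2 of 6 Gy at 6 h, 2 of 6 Gy at 24 h, 1 of CBLB502 alone and 1 control, and 0 of 15 Gy at 24 h with or without CBLB502. The ratio of Gm10925 to the neighbouring mt-Atp8 in FPKM (fragments per kilobase per 1 M fragments) showed no such classes, at 1.08, 1.14 and 1.14 in 15 Gy 6 h libraries and 0.990, 0.927 and 1.09 in controls. Each value of mt-Atp6 below is therefore given by its deposited count and by the count of Gm10925, and ranges over protein-coding genes are given for the other 12.

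**Figure D1:**
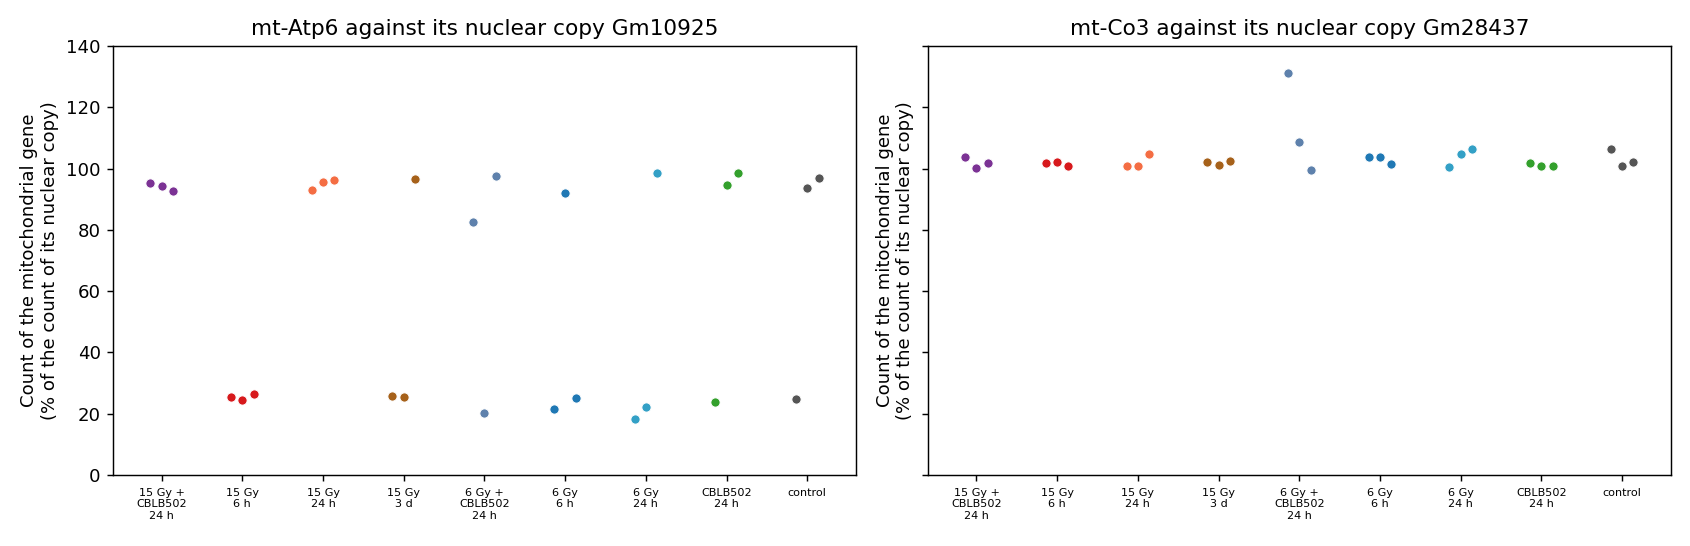
Count of a mitochondrial gene as a percentage of the count of its nuclear copy, 1 point per library, in 9 groups of 3 libraries (left mt-Atp6 against Gm10925, right mt-Co3 against Gm28437). On the left 12 libraries lie at 18.4 to 26.5% and 15 at 82.7 to 98.5%, with all 3 libraries of 15 Gy at 6 h in the low class.

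Total counts ran from 57.4 to 87.1 M per library. The 6 libraries of 6 Gy at 24 h stood apart: 9808 to 10720 genes had an FPKM of at least 1, against 8167 to 8331 in controls. All 12 exocrine pancreas marker genes were called higher in both of these groups than in control, with a summed level of 244.4 to 2789 counts per 1 M with CBLB502, 82.1 to 8765 without it and 3.53 to 5.38 in controls, where 8 of the 12 (such as Prss2 and Cpa1) had 0 counts in all 3 libraries. Smooth muscle markers (8 genes) summed to 204.2 to 265.1 and 235.0 to 393.8 in those groups, against 95.8 to 131.8 in controls. The 12 enterocyte markers, such as Fabp1 and Vil1, were found in every group and summed to 147000 to 160500 at 6 h after 15 Gy, 53530 to 66400 at 6 h after 6 Gy and 103000 to 125800 in controls. In bulk RNA, fewer cells of a type and less RNA per cell cannot be told apart.

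Mitochondrial genes made up a large share of the RNA, and that share was lowest at 6 h after 15 Gy. The 37 genes held 6.82 ± 2.22% of all counts at 6 h after 15 Gy and 14.01 ± 3.32% in controls (mean ± SD, n = 3 each). The libraries of 15 Gy at 6 h stood at 9.03, 6.83 and 4.59%, all below the controls at 11.8, 12.4 and 17.8%. At 24 h after 15 Gy the share was 13.4, 16.3 and 22.2%, and at 3 d it was 9.09, 9.94 and 10.5%, again below every control. In controls 13.7 ± 3.24% of all counts fell on the protein-coding genes, 0.335 ± 0.0799% on the rRNA genes and 0.0171 ± 0.00643% on the tRNA genes. How RNA was selected for the libraries is not stated, so the rRNA counts are not read as the amount of rRNA in the tissue. With 3 libraries against 3, an exact permutation test cannot go below p = 0.10, so no test is given for the share.

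The other groups overlapped the controls in this share. After 6 Gy it was 28.7, 13.7 and 16.7% at 6 h and 13.8, 12.2 and 10.8% at 24 h, and 9.09, 12.3 and 11.98% at 24 h with CBLB502. CBLB502 with 15 Gy gave 15.1, 15.2 and 18.7%, and CBLB502 alone 9.67, 9.83 and 24.6%. The first library of 6 Gy at 6 h and the third libraries of CBLB502 alone and of 15 Gy with CBLB502 lay above every control. So did the third library of 15 Gy at 24 h.

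**Figure D2:**
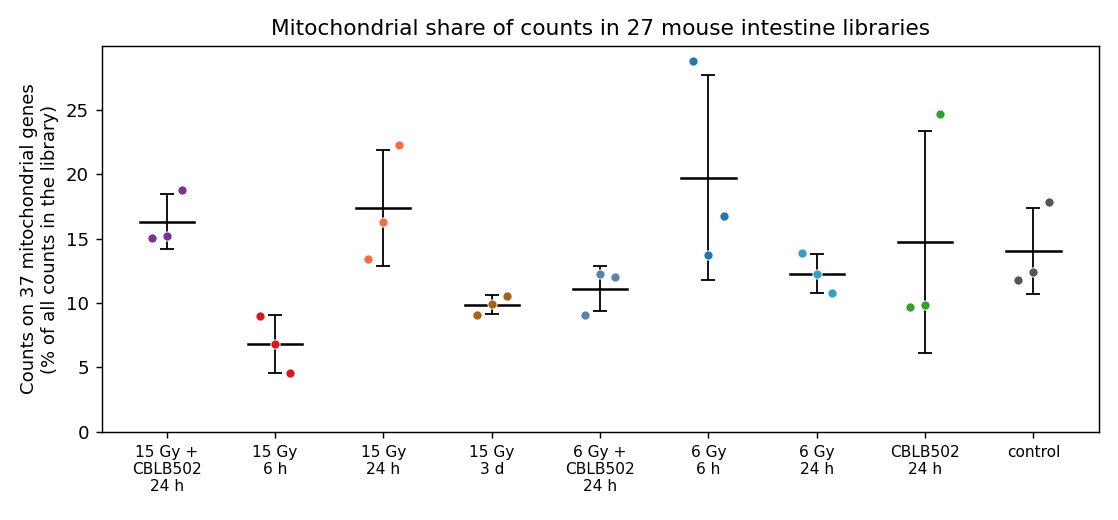
Counts on the 37 mitochondrial genes as a percentage of all counts, 1 point per library, with the group mean and SD (n = 3). The libraries of 15 Gy at 6 h and at 3 d all lie below the 3 controls.

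Per unit of length, the cytochrome oxidase gene mt-Co1 was the most abundant member, with a mean of 29820 FPKM over the 27 libraries. Over all libraries it was followed by mt-Co2 (16160), mt-Atp8 (15480), mt-Co3 (12840) and mt-Cytb (12170). At 6 h after 15 Gy the order differed, with mt-Co3 above mt-Co2 in all 3 libraries. The genes of complex I, which passes electrons from NADH into the chain, were lower, with mt-Nd1 at 8951 and mt-Nd3 at 1888 FPKM. The rRNA genes mt-Rnr1 and mt-Rnr2 stood at 1182 and 930 FPKM, and the tRNA gene mt-Te at 624. The tRNA genes are shorter than a usual fragment, so FPKM compares them poorly with longer genes. By deposited counts mt-Co1 took 33.5 to 36.1% of the mitochondrial counts at 6 h after 15 Gy and 35.6 to 37.5% in controls.

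At 6 h after 15 Gy, 8 members were lower than control, a share of the members close to that of all genes, while mt-Co3 and mt-Nd3 had log2 differences near 0 with overlapping groups. Of the 37 members 8 (21.6%) were called lower and 1 higher (adjusted p under 0.05 over 11118 genes in edgeR's quasi-likelihood F test), beside 16.8% of all genes called lower and 12.2% called higher. With mt-Atp6 by the count of Gm10925, 7 (18.9%) were called lower. All lower calls were among the 13 protein-coding genes, while the 37 also hold 22 tRNA genes, most of them with few counts. The median log2 fold change was -0.60 over the members and 0.02 over all genes. Levels are given as counts per 1 M scaled by TMM (CPM), and changes as log2 fold changes ± SE.

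Of the 7 complex I genes, 5 fell. mt-Nd4l had 644, 451 and 216 CPM after 15 Gy at 6 h, against 1278, 1279.8 and 1869 CPM in controls, a log2 fold change of -1.76 ± 0.47 (adjusted p = 0.00769). All 3 irradiated libraries lay below the controls. mt-Nd5 changed by -1.70 ± 0.49 and mt-Nd4 by -1.63 ± 0.46 on the log2 scale (adjusted p = 0.0121 and 0.0114). mt-Nd6, the only mRNA of the light strand and also a complex I subunit, had 1432, 1200.4 and 741 CPM after 15 Gy, against 3005, 2764 and 4001 CPM in controls, a change of -1.53 ± 0.45 (adjusted p = 0.0135). mt-Nd2 changed by -1.15 ± 0.42 (adjusted p = 0.044). In contrast mt-Nd1 had 8439.9, 7234 and 4098 CPM, against 8489, 7075 and 13049 CPM in controls, and its groups overlapped (-0.53 ± 0.43, adjusted p = 0.37).

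For complex III, mt-Cytb, its only subunit coded in mitochondria, had 8639.5, 6418 and 3451 CPM after 15 Gy and 14644, 13844 and 22199 CPM in controls, a change of -1.45 ± 0.47 (adjusted p = 0.023). In complex IV, the cytochrome oxidase that reduces oxygen, mt-Co1 had 33704, 26621 and 18500 CPM after 15 Gy, against 50592, 53970 and 73603 CPM in controls, a change of -1.18 ± 0.41 (adjusted p = 0.0374). mt-Co2 differed by -1.04 ± 0.39 without passing the test (adjusted p = 0.0522), although its groups did not overlap. mt-Co3 had 14935, 12873 and 8997 CPM after 15 Gy, against 12206, 10544 and 14741 CPM in controls, a difference of -0.03 ± 0.38 with overlapping groups. Of the ATP synthase genes, mt-Atp8 had 3248, 2656 and 1553 CPM, against 3671, 3995 and 4936 CPM in controls, and did not pass (-0.76 ± 0.40, adjusted p = 0.161). mt-Atp6 was called lower by its deposited count (-2.19 ± 0.82, adjusted p = 0.0491), but not by the count of Gm10925, which gave a log2 fold change of -0.61 (adjusted p = 0.293).

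The rRNA genes, which form the mitochondrial ribosome's RNA core, lay below control in every library without passing the test. mt-Rnr1 had 862, 813 and 660 CPM, against 1392, 1517 and 2121 CPM in controls (-1.11 ± 0.52, adjusted p = 0.119). mt-Rnr2 had 1054, 1084 and 845 CPM, against 1824, 1948 and 2820.4 CPM in controls (-1.14 ± 0.49, adjusted p = 0.0819). The member called higher was mt-Tl2, a tRNA gene for leucine, on very few counts: 94, 46 and 10 after 15 Gy, against 2, 8 and 5 in controls (log2 fold change 3.18 ± 1.06, adjusted p = 0.0287).

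The number of calls rested on single libraries. In place of 9 (8 lower, 1 higher), 2 members (1 lower, 1 higher) were called without the third library of 15 Gy at 6 h. Without the second library 5 were called (4 lower, 1 higher). There were 5 without the second control and 4 without the third control, all lower. It was 5 with no filter on low values, and 5 when both 24 h groups of 6 Gy were left out. Of 12 enterocyte markers 4 were called higher, among them Treh, Apoa4 and Lct, and 2 lower, among them Sis. Of 3 tested fibroblast markers 1, Fbln1, was called higher, and their median log2 fold change was -0.03. The 7 listed fibroblast genes summed to 504.6 to 583.5 counts per 1 M at 6 h after 15 Gy and 263.7 to 281.4 in controls, with Lum at 0 in all of these libraries. The part of these markers in the result was not tested.

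**Figure D3:**
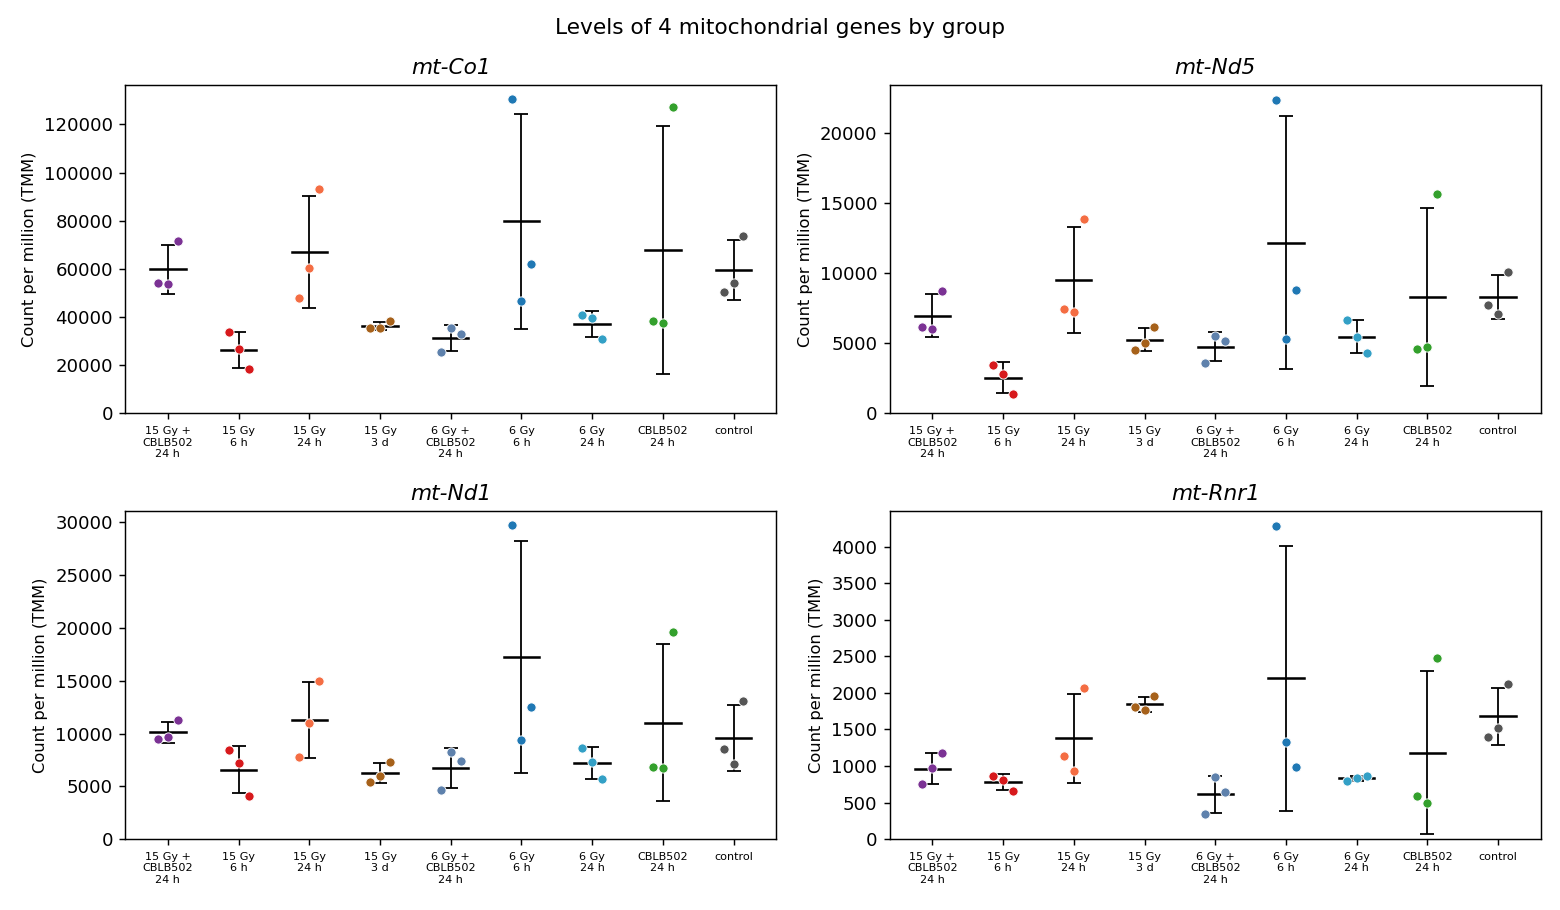
Levels of mt-Co1, mt-Nd5, mt-Nd1 and mt-Rnr1 in counts per 1 M (TMM), 1 point per library, with group mean and SD (n = 3). For mt-Co1, mt-Nd5 and mt-Rnr1 all libraries of 15 Gy at 6 h lie below the controls, while mt-Nd1 overlaps.

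**Figure D4:**
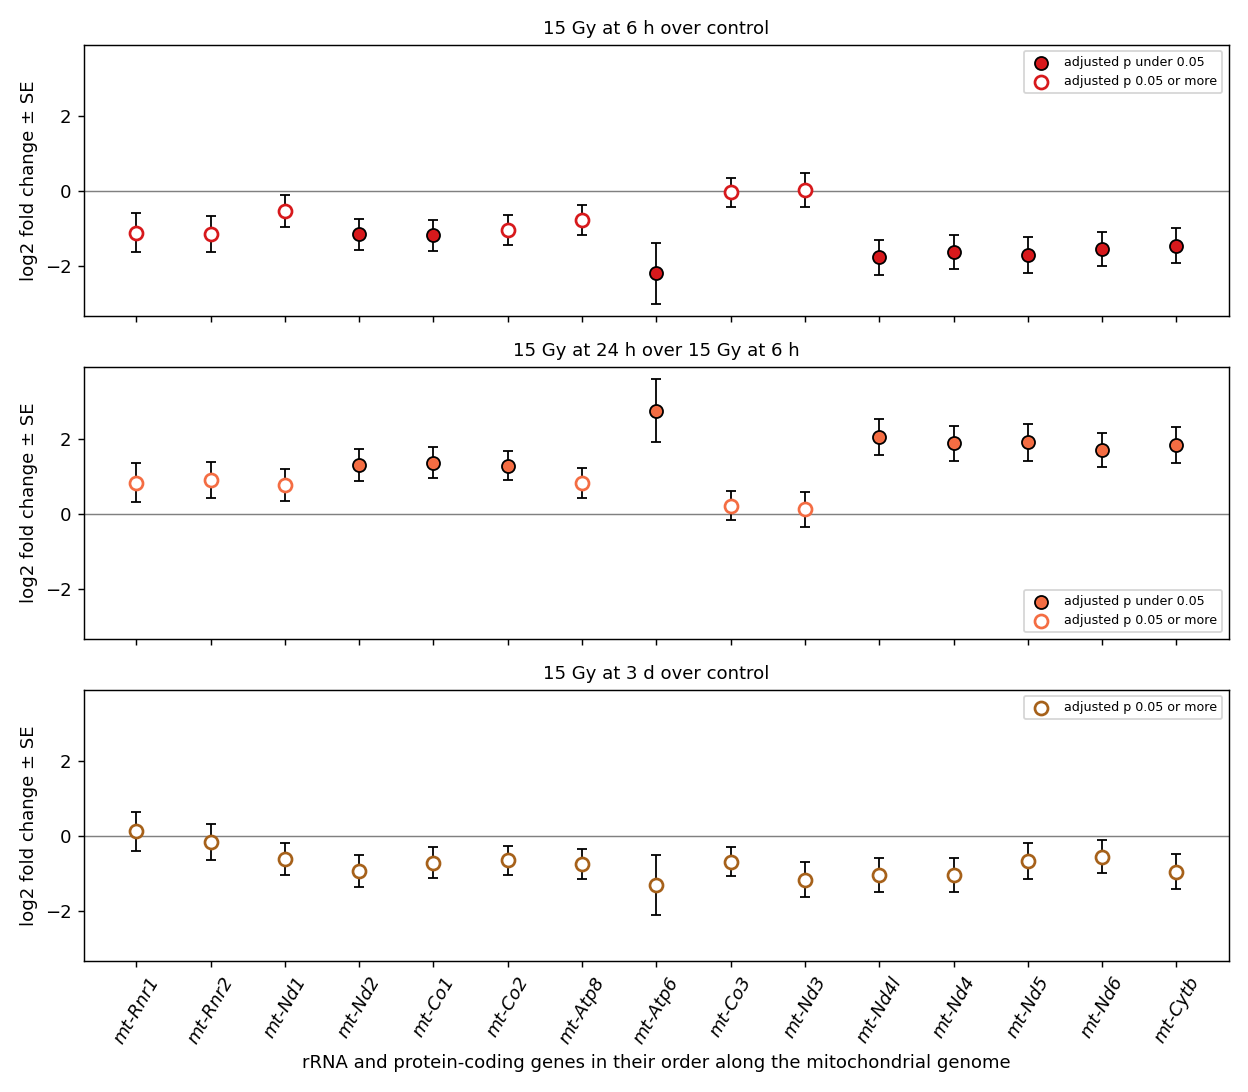
Log2 fold change ± SE of the 2 rRNA and 13 protein-coding genes in genome order, for 15 Gy at 6 h over control, 15 Gy at 24 h over 15 Gy at 6 h, and 15 Gy at 3 d over control, with filled points at adjusted p under 0.05. In the panels for 15 Gy at 6 h over control and 24 h over 6 h, mt-Co3 and mt-Nd3 lie near 0 between mt-Atp6 (deposited count) and mt-Nd4l, which are called.

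The make-up of the mitochondrial counts differed at 6 h after 15 Gy. mt-Co3, chosen after its values were seen, took 15.2, 16.2 and 17.6% of the mitochondrial counts in those libraries and 8.97, 7.34 and 7.13% in controls. Over the 24 libraries of the other 8 groups it ranged from 5.62 to 8.97%. mt-Nd3, which follows it on the genome and was chosen in the same way, took 1.00, 1.12 and 1.10% after 15 Gy at 6 h, against 0.462, 0.412 and 0.561% in controls. mt-Cytb took 8.81, 8.08 and 6.74% at 6 h after 15 Gy and 10.8, 9.63 and 10.7% in controls, and mt-Nd4 took 4.64, 4.26 and 3.82% after 15 Gy at 6 h and 6.28, 6.08 and 6.42% in controls. The shares of mt-Co3 and mt-Nd3 were higher and those of mt-Cytb and mt-Nd4 lower in every irradiated library than in any control.

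Ratios of FPKM within a library do not depend on how libraries are scaled. The ratio of mt-Co3 to mt-Co2, both subunits of cytochrome oxidase, was 1.47, 1.55 and 1.63 at 6 h after 15 Gy and 0.819, 0.707 and 0.760 in controls. mt-Cytb over mt-Co3 was 0.396, 0.342 and 0.263 after 15 Gy and 0.822, 0.900 and 1.03 in controls. For mt-Nd4l over mt-Nd3, the genes on either side of mt-Tr shown above, it was 0.767, 0.596 and 0.449 after 15 Gy, against 2.38, 2.54 and 1.89 in controls and 1.97, 1.94 and 2.33 at 6 h after 6 Gy. By 24 h after 15 Gy this last ratio was 2.64, 2.55 and 2.19, and at 3 d 2.48, 2.38 and 2.29, both overlapping the controls. A ratio shows unequal change and not which gene changed. These ratios were chosen after the values were seen and are given without a test, and the counts of mt-Co2, mt-Co3, mt-Nd3 and mt-Nd4l cannot be told apart from those of the chromosome 1 copies.

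**Figure D5:**
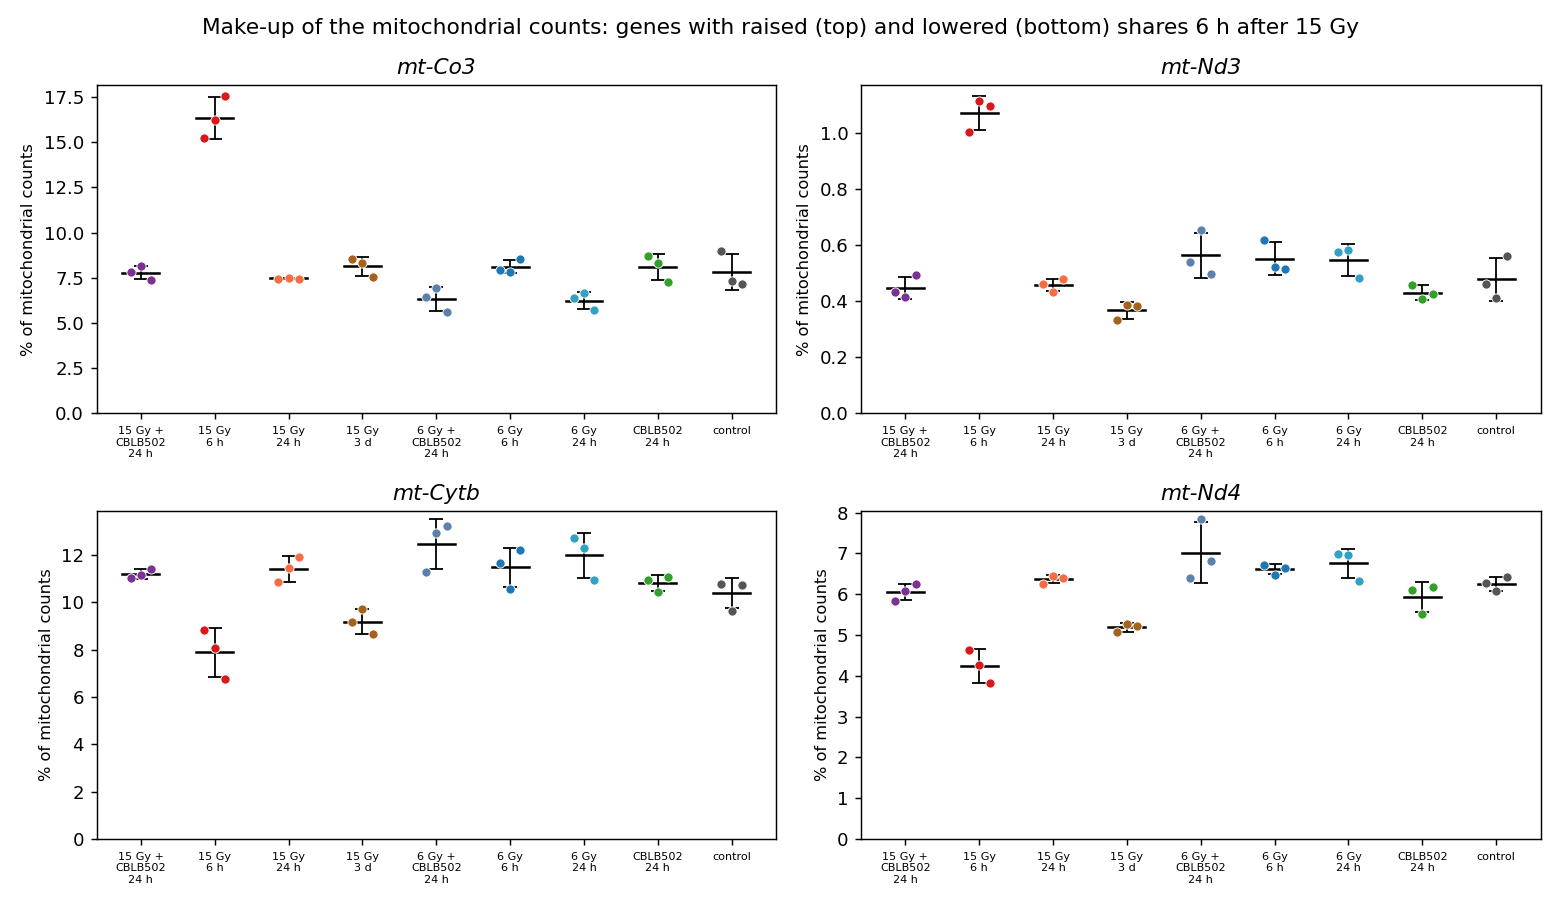
Percentage of the mitochondrial counts held by mt-Co3, mt-Nd3, mt-Cytb and mt-Nd4, 1 point per library, with group mean and SD (n = 3). The libraries of 15 Gy at 6 h lie above the controls for mt-Co3 and mt-Nd3 and below them for mt-Cytb and mt-Nd4.

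The 6 h groups of both doses were compared directly. At 6 h after 15 Gy, 17 of the 37 members (45.9%) were called lower than at 6 h after 6 Gy and 0 higher, beside 23.0% of all genes called lower and 20.2% called higher. The 17 were 10 protein-coding genes, both rRNA genes and 5 tRNA genes (mt-Tl1, mt-Ti, mt-Tm, mt-Tr and mt-Te). mt-Nd4l had 644, 451 and 216 CPM after 15 Gy, against 3811, 1134 and 1736 CPM after 6 Gy, a change of -2.35 ± 0.48 (adjusted p = 0.000429). mt-Cytb had 8639.5, 6418 and 3451 CPM after 15 Gy and 42477, 13853 and 20600 CPM after 6 Gy, a change of -2.06 ± 0.47 (adjusted p = 0.00139). mt-Rnr1 changed by -1.50 ± 0.53 and mt-Rnr2 by -1.35 ± 0.49 (adjusted p = 0.0267 and 0.0301). mt-Co3 and mt-Nd3 again did not pass, at -0.55 ± 0.38 and -0.65 ± 0.46, nor did mt-Atp6 (-1.54 ± 0.80 by its deposited count and -1.03 by that of Gm10925, adjusted p = 0.128 and 0.0556).

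The first library of 6 Gy at 6 h was the highest of its group for mt-Nd4l and mt-Cytb, and without it 7 members were called. The count was 9 without the third library of 15 Gy at 6 h and 11 without the second. Between these groups 11 of 12 enterocyte markers were called higher after 15 Gy, and their part in the result was not tested. Against control, 6 Gy at 6 h had 0 members called, beside 28.4% of all genes called in either direction (13.1% higher, 15.3% lower), with 1 member at an unadjusted p under 0.05, 1 called by DESeq2 and 0 by limma. The median log2 fold change of the members was 0.59, with mt-Co1 at 0.43 ± 0.41 and mt-Nd1 at 0.85 ± 0.43. The 7 members called in both comparisons of 15 Gy at 6 h (7 of 9 and 7 of 17) share the irradiated libraries of that group and are no separate evidence.

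At 24 h after 15 Gy, 9 mRNAs and 1 tRNA gene were higher than at 6 h. Of the 37 members 10 were called higher than at 6 h after 15 Gy and 0 lower, beside 18.7% of all genes called higher and 13.5% called lower. mt-Cytb had 14932, 19197 and 31579 CPM at 24 h, against 8639.5, 6418 and 3451 CPM at 6 h, a change of 1.83 ± 0.47 (adjusted p = 0.005). mt-Nd4l had 1427, 1588 and 2379.7 CPM at 24 h, against 644, 451 and 216 CPM at 6 h (2.04 ± 0.47, adjusted p = 0.00217). mt-Nd6 had 2864, 2857 and 5256 CPM at 24 h and 1432, 1200.4 and 741 CPM at 6 h (1.70 ± 0.45, adjusted p = 0.00595). mt-Nd4, mt-Nd5, mt-Nd2, mt-Co1 and mt-Co2 rose too, by 1.28 to 1.90 on the log2 scale, as did the tRNA gene mt-Te for glutamate, by 1.46 ± 0.52 (adjusted p = 0.0355). mt-Atp6 rose by its deposited count (2.74 ± 0.83, adjusted p = 0.0152) and did not pass by that of Gm10925 (0.83, adjusted p = 0.141). mt-Co3 and mt-Nd3 were at 0.21 ± 0.38 and 0.12 ± 0.46, and neither passed. Without the third library of 15 Gy at 6 h 5 members were called, and without the third at 24 h 6 were. Of 12 enterocyte markers 5 were called lower and 0 higher at 24 h than at 6 h, and their part in the result was not tested.

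Against control, 0 members were called at 24 h after 15 Gy, beside 4.94% of all genes called in either direction (2.63% higher, 2.31% lower), with 1 at an unadjusted p under 0.05 and 0 by DESeq2 or limma. mt-Co1 had 48056, 60259 and 92980 CPM, against 50592, 53970 and 73603 CPM in controls (0.18 ± 0.41). The 12 protein-coding genes other than mt-Atp6 had log2 fold changes above 0, from 0.05 to 0.37. mt-Atp6 was at 0.56 by its deposited count and 0.22 by that of Gm10925.

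At 3 d after 15 Gy the protein-coding genes had log2 fold changes below 0 without passing the test, and the rRNA genes overlapped the controls. Among the protein-coding genes mt-Nd1 overlapped them too, at 5425, 6013.5 and 7320 CPM against 8489, 7075 and 13049 CPM in controls. So did mt-Atp6 by its deposited count. No member was called against control (0 of 37, beside 29.4% of all genes, 13.9% higher and 15.6% lower), with 4 at an unadjusted p under 0.05, 1 called by DESeq2 and 0 by limma. Fitted on these groups alone, 9 were called. The 12 protein-coding genes other than mt-Atp6 had log2 fold changes below 0, from -1.16 to -0.55. mt-Atp6 was at -1.3 by its deposited count and -0.77 by that of Gm10925. mt-Co1 had 35503, 35303 and 38190 CPM at 3 d, against 50592, 53970 and 73603 CPM in controls (-0.71 ± 0.41, adjusted p = 0.209). mt-Cytb had 8061, 8810.1 and 9475 CPM at 3 d and 14644, 13844 and 22199 CPM in controls (-0.94 ± 0.46, adjusted p = 0.132). mt-Rnr1 had 1809.9, 1759.9 and 1952 CPM at 3 d, against 1392, 1517 and 2121 CPM in controls, a difference of 0.13 ± 0.52, and mt-Rnr2 differed by -0.15 ± 0.48. Of 12 enterocyte markers 7 were called lower and 0 higher at 3 d, as were 5 of 7 tested T cell markers and all 3 tested erythrocyte markers. The 8 T cell markers summed to 128.8 to 210.0 counts per 1 M at 3 d and 202.4 to 469.0 in controls, and the 4 erythrocyte markers to 0.0507 to 2.26 at 3 d and 4.16 to 11.3 in controls. Their part in these values was not tested.

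The rRNA genes took a larger part of the mitochondrial counts at 3 d than in controls. mt-Rnr1 held 2.06, 1.94 and 1.78% of them at 3 d and 1.02, 1.06 and 1.03% in controls, and mt-Rnr2 held 1.83, 1.95 and 2.34% at 3 d and 1.34, 1.35 and 1.36% in controls. The FPKM ratio of mt-Rnr1 to mt-Co1 was 0.0825, 0.0806 and 0.0827 at 3 d, against 0.0445, 0.0455 and 0.0466 in controls. At 6 h it was 0.0414, 0.0494 and 0.0577 after 15 Gy and 0.0530, 0.0459 and 0.0256 after 6 Gy. Both 6 h groups had libraries above and below every control. At 24 h it was 0.0226, 0.0292 and 0.0265 after 15 Gy with CBLB502, 0.0382, 0.0250 and 0.0359 after 15 Gy and 0.0246, 0.0210 and 0.0314 after CBLB502 alone, with every library of these 3 groups below the controls. At 24 h after 6 Gy it was 0.0223, 0.0388 and 0.0313 with CBLB502, below the controls, and 0.0316, 0.0342 and 0.0453 without it, where the third library lay among them. These ratios were chosen after the values were seen and have no test. Part of mt-Co1 also matches Gm29216, so its count is uncertain.

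At 24 h after 6 Gy the share of members called lower than control was below that of all genes without CBLB502 and above it with CBLB502. Compared directly, the groups with and without CBLB502 had 0 members called and 0 at an unadjusted p under 0.05. The contrast of these shares is no test of CBLB502. With CBLB502, 9 members (24.3%) were called lower and 0 higher, beside 17.5% of all genes called lower and 19.8% called higher. Without it 4 (10.8%) were called lower and 0 higher, beside 16.4% of all genes called lower and 16.6% called higher. These 4, mt-Co3, mt-Ts1, mt-Td and mt-Tg, were also among the 9, which added mt-Atp8, mt-Co2, mt-Nd6 and both rRNA genes. The comparisons share the control libraries. The 6 libraries of 6 Gy at 24 h, with or without CBLB502, had TMM factors of 1.23 to 1.42, against 0.862 to 0.866 in controls. A larger factor lowers every CPM. The median log2 fold change of the members was -0.80 with CBLB502 and -0.66 without it. Their share of all counts, which uses no such factor, was 11.12 ± 1.76% and 12.29 ± 1.53%, against 14.01 ± 3.32% in controls. The part of these factors in the calls was not tested. mt-Atp6 did not pass by its deposited count, at -1.67 ± 0.80 with CBLB502 and -2.07 ± 0.81 without it (adjusted p = 0.108 and 0.0552). By the count of Gm10925 it was called lower in both groups, at -1.37 and -1.20 (adjusted p = 0.0164 and 0.0358), giving 10 and 5 members. Gm10925 was itself low beside mt-Atp8 in these groups. Their FPKM ratio was 0.620, 0.849 and 0.921 with CBLB502 and 0.873, 0.916 and 0.858 without it. In controls it was 0.990, 0.927 and 1.09. The part of this in the added calls was not tested. mt-Co3 had 4138, 6891 and 5139.8 CPM with CBLB502 and 6779, 6576 and 4558 CPM without it, against 12206, 10544 and 14741 CPM in controls. Its changes were -1.21 ± 0.39 and -1.07 ± 0.39 (adjusted p = 0.0186 and 0.039), and no library of either group reached the controls. mt-Nd6 had 1018, 1697 and 1394 CPM with CBLB502, against 3005, 2764 and 4001 CPM in controls (-1.25 ± 0.44, adjusted p = 0.032). mt-Rnr1 had 349, 854 and 638 CPM with CBLB502, against 1392, 1517 and 2121 CPM in controls (-1.45 ± 0.53, adjusted p = 0.0362).

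The tRNA genes called here had few counts. mt-Ts1 had 21, 37 and 42 counts with CBLB502 and 51, 64 and 45 without it, against 95, 161 and 105 in controls. mt-Td had 10, 24 and 21 counts with CBLB502 and 14, 16 and 17 without it, against 47, 118 and 51 in controls. For mt-Tg they were 3, 15 and 5 with CBLB502 and 7, 5 and 4 without it, against 11, 49 and 72 in controls. The totals of these 6 libraries were 57.4 to 68.5 M, against 75.5 to 86.9 M in controls. Within complex IV, mt-Co1 over mt-Co2 in FPKM was 2.12, 1.97 and 2.23 with CBLB502 and 2.21, 2.10 and 2.21 without it, against 1.72, 1.84 and 1.93 in controls. Gm29216, which matches part of mt-Co1, also differed in these libraries. It held 10.6, 13.9 and 12.5% of the mt-Co1 count with CBLB502 and 12.4, 13.6 and 13.1% without it. In controls it held 23.7, 23.0 and 22.2%. The part of the nuclear copies in this ratio was not tested.

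With CBLB502 at 6 Gy the 9 calls, all lower, became 2 without its library 1 or its library 3. They became 4, 5 and 2 without control 1, control 2 and control 3. DESeq2 called 14, all lower, and limma called 4, of which 1 was higher and 3 lower. Without CBLB502 the 4 calls became 2 without its first or second library or the second control, 7 by DESeq2, 2 by limma and 14 when these groups were fitted alone. The pancreas and smooth muscle markers given above moved with both groups. Of 3 tested fibroblast markers 2 were called higher in both, Col1a1 (5.90 ± 1.26 with CBLB502 and 6.30 ± 1.28 without it) and Col3a1 (4.58 ± 0.93 and 4.21 ± 0.92), and of 12 enterocyte markers 8 with CBLB502 and 9 without it were called lower than control. Whether these libraries differ by handling or by the tissue taken cannot be told apart, and the part of that difference in the result was not tested.

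CBLB502 moved no member past the test. Given with 15 Gy, it had 0 members called against 15 Gy at 24 h, beside 0% of all genes, and 0 at an unadjusted p under 0.05, by DESeq2 or by limma. mt-Co1 had 53996, 53603 and 71620 CPM with CBLB502 and 15 Gy, against 48056, 60259 and 92980 CPM with 15 Gy (-0.17 ± 0.41), and the 12 protein-coding genes other than mt-Atp6 ranged from -0.45 to 0.02 on the log2 scale, with mt-Atp6 at -0.14 by its deposited count and -0.12 by that of Gm10925. mt-Rnr1 had 754, 967 and 1173 CPM with CBLB502 and 15 Gy, against 1136, 930 and 2065 CPM with 15 Gy. Against control the same group had 0 called, beside 16.9% of all genes (8.65% higher, 8.20% lower), with 1 at an unadjusted p under 0.05 and 0 by DESeq2 or limma.

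With 6 Gy, CBLB502 gave 0 calls against 6 Gy at 24 h, beside 0% of all genes, and 0 at an unadjusted p under 0.05, by DESeq2 or by limma. The 12 protein-coding genes other than mt-Atp6 ranged from -0.41 to -0.01 on the log2 scale. mt-Atp6 was at 0.40 by its deposited count and -0.17 by that of Gm10925. CBLB502 alone had 0 members called against control, beside 5.74% of all genes (2.48% higher, 3.26% lower), and 0 at an unadjusted p under 0.05, by DESeq2 or by limma. mt-Co1 had 38505, 37545 and 127310 CPM with CBLB502 alone, against 50592, 53970 and 73603 CPM in controls, where the third CBLB502 library lay above every control and the other two below. The effect of CBLB502 with 15 Gy minus its effect without radiation was called for 0 members, beside 0.225% of all genes (0.153% higher, 0.0720% lower), and for 0 at an unadjusted p under 0.05, by DESeq2 or by limma. For mt-Co1 that difference was -0.36 ± 0.58 on the log2 scale.

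Among the tRNA genes, mt-Te, mt-Tp and mt-Tl1 had the most counts, with means of 3515, 3022 and 2249 per library, and the other 19 had means of 4.70 to 1260. Mature tRNAs are short and modified, and how far these counts reflect them is not known from the labels. At 6 h after 15 Gy mt-Te had 29.3, 25.9 and 16.5 CPM, against 45.9, 44.2 and 78.6 CPM in controls (-1.23 ± 0.52, adjusted p = 0.0773). mt-Tp, the tRNA gene for proline, had 3544, 3027 and 1810 counts, against 1863, 2661 and 3777 counts in controls (log2 fold change -0.10 ± 0.43), with overlapping groups. mt-Tl1, which lies between mt-Rnr2 and mt-Nd1, had 19.98, 18.3 and 7.33 CPM, against 19.9, 21.2 and 44.9 CPM in controls (-0.91 ± 0.51, adjusted p = 0.188).

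Nuclear genes for subunits of the same complexes were set beside these. Of 32 nuclear genes for respiratory chain subunits, 18 were called higher and 0 lower at 6 h after 15 Gy against control, while at 3 d 0 were higher and 29 lower. Of all genes 12.2% were called higher and 16.8% lower at 6 h, and 13.9% higher and 15.6% lower at 3 d. At 24 h after 15 Gy 24 of the 32 were lower than at 6 h and 0 higher, beside 13.5% of all genes called lower and 18.7% called higher. Cox6a1, a complex IV subunit, changed by 0.86 ± 0.12 at 6 h against control (adjusted p = 1.45e-05) and Ndufv1, of complex I, by 0.67 ± 0.14 (adjusted p = 0.00127). At 3 d Cyc1, of complex III, changed by -0.98 ± 0.10 (adjusted p = 6.31e-07). No direct test of the mitochondrial against the nuclear genes was made.

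Of 15 genes for transcription and upkeep of mitochondrial DNA, 10 were tested. At 6 h after 15 Gy 2 were lower and 1 higher than control: Tfam, which packages the DNA and starts transcription (-0.61 ± 0.16, adjusted p = 0.00733), Mterf2 (-1.09 ± 0.34, adjusted p = 0.0191) and the helicase Twnk (0.78 ± 0.23, adjusted p = 0.0149). At 24 h after 15 Gy 4 were higher than at 6 h and 0 lower, with Tfam at 1.06 ± 0.16 (adjusted p = 4.38e-05), the initiation factor Tfb2m at 1.3 ± 0.18 (adjusted p = 1.38e-05), the elongation factor Tefm at 1.17 ± 0.29 (adjusted p = 0.00408) and Mterf2 at 1.22 ± 0.34 (adjusted p = 0.00794). In that comparison 18.7% of all genes were called higher and 13.5% lower. Against 6 Gy at 6 h the same 4 were called lower after 15 Gy and 0 higher, beside 23.0% of all genes called lower and 20.2% called higher.

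Among 24 tested genes for processing and decay of mitochondrial RNA, 4 were higher and 4 lower at 6 h after 15 Gy than in control. The lower ones included Trmt10c, a part of the nuclease that cuts the 5′ ends of tRNAs (-1.45 ± 0.32, adjusted p = 0.00185), and Pnpt1, the mitochondrial RNA-degrading phosphorylase (-1.54 ± 0.35, adjusted p = 0.00213). Of 8 tested regulators of mitochondrial biogenesis, 4 were lower and 0 higher: Gabpa, Yy1, Sirt1 and Ppargc1a, from -1.40 to -0.55. Of 10 genes for mitophagy, fusion and fission, 5 were lower and 0 higher, with Dnm1l, the fission GTPase, at -1.42 ± 0.12 (adjusted p = 9.18e-08). Of 12 tested genes of the mitochondrial stress response, 1 was higher and 3 lower, with the protease gene Yme1l1 at -1.3 ± 0.13 (adjusted p = 7.21e-07) and the secreted factor gene Gdf15 at 4.40 ± 0.62 (adjusted p = 2.19e-05). These lists were chosen with earlier results of these data known, and their counts are read beside the 12.2% of all genes called higher and 16.8% called lower in that comparison. At 3 d after 15 Gy 11 of the 24 processing genes were higher and 1 lower than control, beside 13.9% of all genes called higher and 15.6% called lower.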

How the data were processed

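RNA-seq of mouse intestine was analysed in 27 libraries, 3 in each of 9 groups. The deposited table holds raw read counts per gene and FPKM values that the authors made, per the file headers. HISAT2 2.0, StringTie 1.3.0, Bowtie 0.12.2 and the build mm8 are named in the submitters' processing notes, without their roles. All 37 members have the same position and strand in GENCODE vM21 (GRCm38), as do 94.2% of the shared gene identifiers (51957 of 55141), and coordinates are of that build. Neither strand use in counting nor the treatment of reads with several matches was found in the labels. A gene was tested where 3 or more libraries reached an FPKM of 1. Counts were tested by the quasi-likelihood F test of edgeR 4.0.16 (scaling by TMM, group as the only term, all libraries, Benjamini-Hochberg adjustment over 11118 genes, threshold 0.05) in R 4.3.3. The test was checked on simulated data. Alternatives used DESeq2 1.42.0, limma 3.58.1 on log2(FPKM + 1) and log2(FPKM + 0.1), other filters, scalings and fits, and each library left out. Nuclear copies were found with blastn 2.17.0. Sums of marker genes are counts per 1 M total counts without TMM.

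The members and gene lists were chosen with earlier results of these data known. Values in every library were planned for both rRNA genes, the most abundant mRNA of each complex, mt-Nd6, mt-Atp8, mt-Nd4l, the 3 tRNA genes with the most counts and any member that went against most others; up to 4 genes per list by adjusted p; and nuclear copies over 1000 counts. Other members were named after their values were seen. Depth was 57.4 to 87.1 M counts per library.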

Additional observations from a re-analysis of the deposited data

Results flagged for a closer look

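The effect of 15 Gy against control differed between 24 h and 6 h for 10 members. The difference of these effects equals the direct comparison of 24 h with 6 h, since both share the control (edgeR's quasi-likelihood F test, adjusted over 11118 genes). It was 2.74 for mt-Atp6 by its deposited count, 2.04 for mt-Nd4l, 1.90 for mt-Nd5, 1.88 for mt-Nd4 and 1.83 for mt-Cytb on the log2 scale. It was 1.70 for mt-Nd6, 1.46 for mt-Te, 1.35 for mt-Co1, 1.3 for mt-Nd2 and 1.28 for mt-Co2. For mt-Atp6 the count of Gm10925 gave 0.83 (adjusted p = 0.141).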

How the results depend on the processing

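No direction reversed among 49 named gene results: of 526 values under other settings 477 kept their call and 49 lost it, and of 294 with a library left out 192 kept it and 102 lost it. Counts of called members moved as follows. For 15 Gy at 6 h against control they were 5 with no filter on low values and 5 when the 24 h groups of 6 Gy were left out, in place of 9. For 6 Gy at 24 h they were 7 by DESeq2, 14 when fitted alone and 2 by limma with either pseudocount, in place of 4. For 6 Gy with CBLB502 they were 14 by DESeq2 and 4 by limma with either pseudocount (1 higher, 3 lower), in place of 9. In place of 0, 15 Gy at 3 d had 1 by DESeq2 and 9 when fitted alone, and 6 Gy at 6 h had 1 by DESeq2. The cause was not tested. Leaving out the 24 h groups of 6 Gy and using Gm10925 for mt-Atp6 were chosen after seeing the data. With 1 library left out, counts ranged from 2 to 8 for 15 Gy at 6 h, 5 to 12 for 24 h against 6 h, 7 to 17 for 15 Gy against 6 Gy at 6 h, 2 to 3 for 6 Gy at 24 h, 2 to 13 for 6 Gy with CBLB502, and 0 to 1 for 15 Gy at 3 d (1 without its second library), 6 Gy at 6 h (1 without its library 2, its library 3 or control 3) and CBLB502 alone (1 without its library 3). As a share of summed FPKM, which weights short genes more by construction, the members held 30.92% after 15 Gy with CBLB502, 15.35% at 6 h, 31.74% at 24 h and 20.8% at 3 d after 15 Gy, 24.11% after 6 Gy with CBLB502, 33.19% at 6 h and 25.47% at 24 h after 6 Gy, 26.71% after CBLB502 alone and 27.46% in controls. With a replicate block the counts were 7 for 15 Gy at 6 h, 16 against 6 Gy at 6 h, 9 for 24 h against 6 h, 4 for 6 Gy at 24 h and 7 for 6 Gy with CBLB502. The numbers do not pair the libraries: 21 of 108 same-numbered pairs correlated over 0.1, and 13 of 27 libraries correlated best with their own number. Low counts limit most tRNA genes.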
